A study of Mus musculus with 23 samples.

Results

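Myeloid cells of the blood were compared between day 8 and day 0 of B16 tumour growth in all genes of the deposited table. The comparison used 6 of the 23 RNA sequencing libraries of the series, 3 per day, chosen by their labelled tumour and day. B16 is a mouse melanoma cell line, and the mice were labelled as strain C57bl. Immature myeloid cells, also called myeloid-derived suppressor cells (MDSCs), were separated from peripheral blood with magnetic beads, and polyadenylated RNA was sequenced. Both groups share the strain, the blood source, the separation and the sequencing method, and differ in the labelled day. Blood at days 4 (2 libraries) and 11 (3 libraries) of B16 growth gave the neighbouring time points. The design describes 3 biological repeats per group. The labels do not say whether the day 0 mice had received tumour cells, whether each library came from its own animal, which surface marker the beads carried, how or where the tumour cells were given, or the age and sex of the mice, so the p-values measure the spread between these libraries, which may be partly technical.

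Immature myeloid cells are released from the bone marrow in larger numbers when a tumour or an inflammation drives granulocyte colony-stimulating factor and related cytokines, and they include neutrophil-like and monocyte-like cells. They carry calprotectin (S100a8 and S100a9), move along chemokine gradients, store enzymes in granules, and can restrain T cells through arginase, nitric oxide, prostaglandins and checkpoint ligands. A bead-separated fraction of blood can also hold platelets, B cells, eosinophils and cell fragments, and in bulk RNA fewer cells of a type and less RNA per cell cannot be told apart.

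Expression is given as normalised counts: each library's reads in a gene over a single scaling factor for that library. The day 0 libraries held 10.87e6 to 13.22e6 reads in genes and the day 8 libraries 14.28e6 to 14.82e6, or 13.46e6 to 13.81e6 and 12.39e6 to 12.53e6 normalised counts. Neutrophil markers were strong on both days: S100a8 (chromosome 3, 90669071 to 90670034, GRCm38) and S100a9 (chromosome 3, 90692630 to 90695721) together ranked among the most abundant genes, and Csf3r, Cxcr2 and Il1b were also abundant in every library. The libraries of a day correlated with r of 0.9767 to 0.9909 across genes and those of different days with 0.9253 to 0.9404. Day 0 stood apart in the 45S ribosomal RNA precursor Rn45s, which took 2.57% to 3.1% of a day 0 library and 0.427% to 0.522% of a day 8 library. Day 0 replicate 3 stood apart within its group in interferon-gamma induced genes, whose summed level was 70246 there and 25483 and 26979.5 in the other 2. Day 8 replicate 1 held the least platelet RNA and photoreceptor RNA of its group.

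Of 11930 genes with a mean of at least 5 normalised counts, 6676 differed between day 8 and day 0 (56.0%) at an adjusted p under 0.05 in limma on log2(normalised count + 1). At day 8, 3415 genes were higher (28.6%) and 3261 were lower (27.3%). The counts risen and fallen in each gene list below are read against these shares. A difference of at least 2-fold was called in 2302 genes (19.3%), 1329 of them higher (11.1%) and 973 lower (8.16%). The 3 day 8 libraries lay wholly above or wholly below the 3 day 0 libraries in 7553 genes (63.3%). A lack of overlap was thus common and is read against that share. Most genes named below were picked by a small adjusted p or by a lack of overlap itself, so in them it adds no support. The median log2 difference of all genes was -0.02, the quartiles lay at -0.50 and 0.49, and the 5th and 95th percentiles at -1.32 and 1.84. When all libraries were brought to 1 common total, the median moved to 0.11 and 61.2% of the calls were higher at day 8, against 51.2% with the deposited scaling, and with the same upper quartile the median was -0.12.

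**Figure D1:**
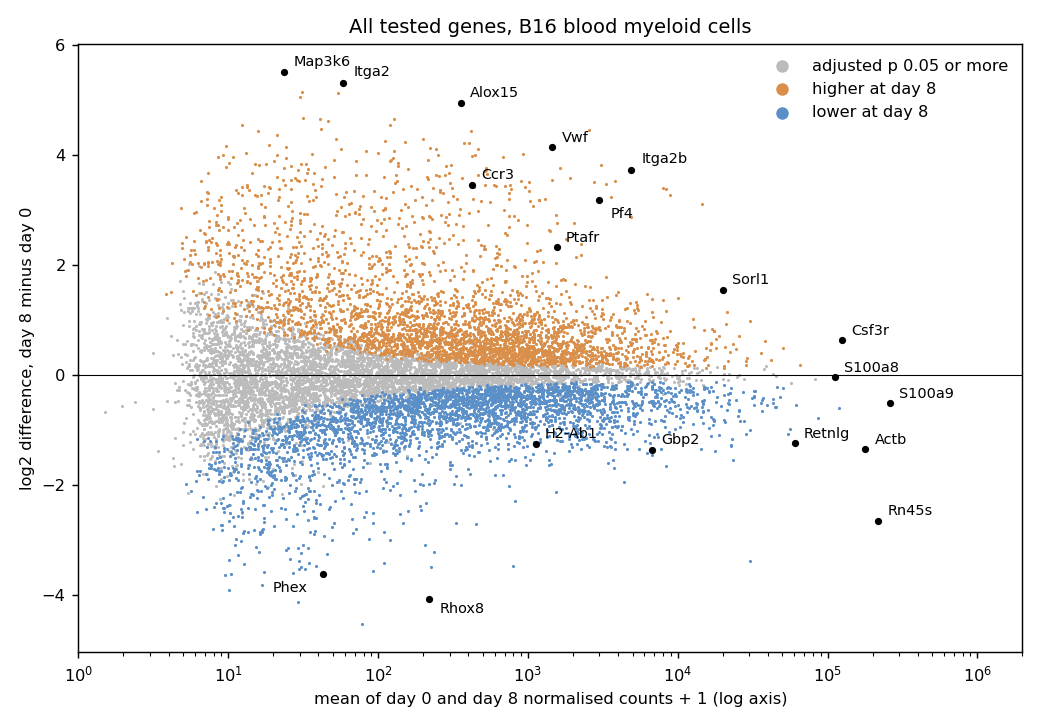
Log2 difference between day 8 and day 0 (y axis) against the mean normalised count of both days plus 1 (x axis, log axis) for each of the 11930 genes tested, coloured by call. Platelet genes (Vwf, Itga2b, Pf4) and Alox15 and Ccr3 lie far above 0, the abundant neutrophil genes Csf3r, S100a8 and S100a9 lie within 1 of it, and Rn45s, Rhox8 and Phex lie far below.

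The difference followed transcript length, and this touches every gene group below. Among 11844 tested genes with an annotated length, the shortest decile (up to 1383 bases) had a median log2 difference of -0.58, and 55.1% of its genes fell while 9.11% rose. The longest decile (6680 bases or more) had a median of 0.45, with 54.1% risen and 10.9% fallen. The medians rose through all deciles between them, and the Spearman correlation between length and difference was 0.34 across genes, which are not independent replicates. The day 0 libraries were alike in the balance of short against long transcripts (median log2 deviation of the shortest decile minus that of the longest 0.54, 0.49 and 0.53), whereas the day 8 libraries spread from -0.78 in replicate 1 through -0.55 in replicate 2 to -0.27 in replicate 3. The libraries of days 4 and 11 lay between -0.09 and 0.12. A second fit, added after the data were seen, removed a smooth length trend from each library: of 6628 called genes with a length, 5106 were called in the same direction and 72 in the other. Counts or medians from that fit are given beside the groups below where it moved a count by over 1.5 times or turned a median; what set the length trend was not tested.

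**Figure D2:**
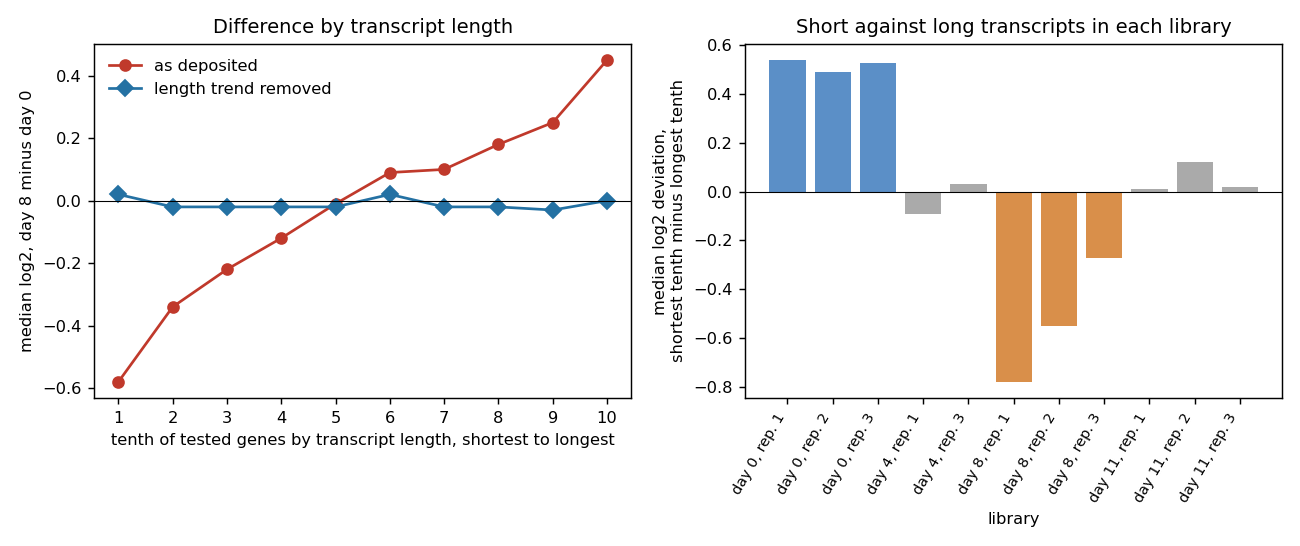
Left, median log2 difference between day 8 and day 0 (y axis) in deciles of the tested genes from the shortest to the longest transcripts (x axis), as deposited and with the length trend removed. The deposited values climb from -0.58 to 0.45 and the corrected ones stay within 0.03 of 0. Right, for each of the 11 B16 libraries (x axis), the median log2 deviation of the shortest decile minus that of the longest decile (y axis). The day 0 bars are all near 0.5 and the day 8 bars are all negative and unequal.

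Platelet genes were far higher at day 8. Of 19 platelet markers 19 rose, 18 of them at least 2-fold, against 28.6% of all genes higher, and their median log2 difference was 3.38. Their summed level was 5451 to 21305 normalised counts at day 0 and 49424 to 119845 at day 8, and it was 171354 and 60572 at day 4. Itga2b (chromosome 11, 102453297 to 102469883), the alpha chain of the platelet fibrinogen receptor, stood at 487, 361 and 1455 at day 0 and at 4822, 10549 and 11633 at day 8 (log2 difference 3.72 ± 0.50 SE, adjusted p = 4.66e-05). The lowest day 8 library was above the highest day 0 library, and within each day 1 library stood apart, replicate 3 at day 0 above the others and replicate 1 at day 8 below them. The collagen receptor gene Gp6 went from 21.1, 7.18 and 34.2 to 244, 427 and 456 (log2 difference 4.29 ± 0.49 SE, adjusted p = 1.26e-05). Tubb1, the beta-tubulin of the platelet ring, went from 197, 104 and 477 to 3092, 5644 and 5865 (log2 4.45 ± 0.49), and Vwf, the carrier of coagulation factor VIII, from 96.6, 99.5 and 336 to 1754, 3286 and 3168 (log2 4.14 ± 0.46). In these 3 genes, too, day 0 replicate 3 was the highest and day 8 replicate 1 the lowest library of its day. The ADP receptor gene P2ry12 (2.27 ± 0.28) rose less, and the chemokine genes Pf4 (3.18 ± 0.55) and Ppbp (3.40 ± 0.50) stood near the median of the list. The least risen member was Selp (0.60 ± 0.18), the P-selectin gene, which was not called without day 0 replicate 1. With the length trend removed 19 rose again (median 3.68).

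Promoters of the platelet genes are shown because these genes moved together. The 150 bases before a transcript start listed by RefSeq (GRCm38.p6) for 4 of them follow: Itga2b at chr11:102469884-102470033 on the minus strand, Gp1ba at chr11:70638972-70639121 on the plus strand, Gp5 at chr16:30310782-30310931 on the minus strand and Gp6 at chr7:4397745-4397894 on the minus strand. They encode chains of the receptors for fibrinogen (Itga2b), von Willebrand factor (Gp1ba and Gp5) and collagen (Gp6). Capitals mark matches on either strand to the motif of GATA factors (AGATAA as well as TGATAA) and to that of ETS factors (AGGAAG as well as CGGAAG); the motifs do not overlap each other in these windows. For Gp1ba and Gp6 the RefSeq gene record begins further upstream than the listed start, so part of their windows, including the ETS match of Gp1ba, lies inside the annotated gene. GATA and ETS factors are known regulators of megakaryocyte genes.
Itga2b: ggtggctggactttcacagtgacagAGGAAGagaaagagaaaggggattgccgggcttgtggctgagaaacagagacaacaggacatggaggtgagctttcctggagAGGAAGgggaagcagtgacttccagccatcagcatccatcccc
Gp1ba: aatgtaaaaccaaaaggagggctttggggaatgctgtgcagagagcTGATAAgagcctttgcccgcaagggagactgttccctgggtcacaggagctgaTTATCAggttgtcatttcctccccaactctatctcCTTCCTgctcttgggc
Gp5: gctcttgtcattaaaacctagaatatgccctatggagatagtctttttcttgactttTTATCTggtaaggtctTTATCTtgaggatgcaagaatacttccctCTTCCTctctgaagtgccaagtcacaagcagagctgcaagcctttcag
Gp6: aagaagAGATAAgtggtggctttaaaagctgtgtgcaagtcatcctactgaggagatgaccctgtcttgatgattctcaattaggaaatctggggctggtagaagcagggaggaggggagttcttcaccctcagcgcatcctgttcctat
Itga2b held 2 ETS matches and no GATA match in this window, Gp1ba and Gp5 each held 2 GATA matches and 1 ETS match, and Gp6 held 1 GATA match. Promoters of 15 of the 19 markers were found in the RefSeq table. In the 250 bases before the listed start, the GATA motif occurred in 4 of these 15 promoters (26.7%) and in 16.6% of all 32851 promoters, and the ETS motif in 9 (60%) and in 39.2%. The promoters shown were picked by name, not by a rule. Gp1ba, Gp5 and Gp6 are among the 4 with the GATA motif, so the display is richer in that motif than the list. These are descriptions of letters, not of binding.

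Several of the largest rises outside the marker list ran with the platelet genes over the days. The rule for the largest changes (12 per direction among genes called in every leave-one-library-out fit) named Itga2 (chromosome 13, 114833081 to 114932100), the alpha chain of an integrin that binds collagen on platelets, at 2.48, 1.03 and 2.21 at day 0 and 92.5, 138 and 108 at day 8 (log2 difference 5.31 ± 0.48 SE, adjusted p = 2.08e-06). Apcdd1, an inhibitor of Wnt signalling, went from 1.24, 0 and 1.1 to 33.9, 70.7 and 67.6 (log2 5.05 ± 0.54). Serpinb2, plasminogen activator inhibitor 2, went from 0, 2.05 and 3.31 to 50.9, 55.9 and 72.7 (log2 4.67 ± 0.57). Afap1l1, of the actin filament associated family, followed them at log2 4.63 ± 0.70. All 4 were already high at day 4, where Itga2 stood at 130.3 and 23.6 and Apcdd1 at 129 and 29.7, and day 8 against day 4 was not called for any of them (adjusted p from 0.208 for Itga2 to 0.987 for Afap1l1). Summed platelet markers were also high at days 4 and 8; their part in these 4 genes was not tested. The replication histone gene Hist1h4m (log2 5.15 ± 0.43) was also among the 12, and so were 2 cDNA clones without a gene name.

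A separate set of the largest rises stood high at day 8 alone among the 4 days. Alox15 (chromosome 11, 70344147 to 70390538), the 12/15-lipoxygenase that oxygenates arachidonic acid, was measured at 19.8, 20.5 and 23.2 normalised counts at day 0, 12.8 and 24.4 at day 4, 775, 656 and 632 at day 8 and 7.17, 6.91 and 6.58 at day 11. Day 8 exceeded day 0 by log2 4.95 ± 0.23 (adjusted p = 3.51e-08), exceeded day 4 by 5.19 ± 0.26 (adjusted p = 5.12e-07). The log2 difference of day 11 from day 8 was -6.44 ± 0.23 (adjusted p = 2.12e-08). No library of another day came near the day 8 libraries. Inpp5j, an inositol polyphosphate 5-phosphatase gene, went from 7.43, 11.3 and 7.73 at day 0 to 294, 209.5 and 231 at day 8 (log2 4.65 ± 0.38), and was back at 14.3, 4.94 and 4.38 at day 11. The growth factor receptor gene Fgfr1 went from 1.24, 2.05 and 3.31 to 84, 75 and 72.7 (log2 4.66 ± 0.59) and the UDP-sugar receptor gene P2ry14 from 7.43, 2.05 and 0 to 112, 82.9 and 114 (log2 5.12 ± 0.62). Both were higher at day 8 than at day 4 and day 11 as well (adjusted p at most 0.00303). Map3k6, a kinase of the MAP kinase cascade, had no read in any day 0 library and stood at 47.5, 53.2 and 35.5 at day 8, at least 12.2-fold higher when each day 0 library is set at the 3 reads that a count of 0 allows. These comparisons share the day 8 libraries.

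Eosinophil markers were also higher at day 8. Of 5 eosinophil markers tested, of 9 listed, 4 rose and 0 fell (median 1.67), and their summed level was 510.0 to 587 at day 0 and 1878 to 2163 at day 8. At day 4 the sum was 720.2 and 801.5 and at day 11 it was 909, 845.5 and 976.3, above day 0 and below day 8. Ccr3 (chromosome 9, 124017825 to 124031692), the eotaxin receptor, stood at 61.9, 85.1 and 64 at day 0 and 859, 724 and 752 at day 8 (log2 difference 3.46 ± 0.15 SE, adjusted p = 2.65e-08), and at 71.6 and 75.1 and 60.9, 66.2 and 77.8 at days 4 and 11. Il5ra, the interleukin-5 receptor alpha chain, went from 23.5, 21.5 and 23.2 to 97.6, 64.6 and 66 (log2 1.67 ± 0.24), and the sialic acid-binding lectin gene Siglecf from 383, 441 and 343 to 1080.1, 1008 and 948 (log2 1.38 ± 0.10). In all 3 genes the day 8 libraries lay above the day 0 libraries with a wide gap. The ribonuclease gene Ear1 rose (log2 3.83 ± 0.49) while its near-identical relative Ear2 was not called (log2 -0.66, adjusted p = 0.103), and reads of this family cannot be placed with certainty. The other 4 markers, including the granule protein genes Epx and Prg2, lay under the minimum mean, and Epx was at 0 in all 3 day 0 libraries and in 2 of the 3 day 8 libraries. The 1 basophil and mast cell marker tested, the transcription factor gene Gata2, rose from 7.43, 7.18 and 37.5 to 86.5, 143 and 185 (log2 3.26 ± 0.58); day 4 replicate 1, the library with the most platelet RNA, held 271.

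**Figure D3:**
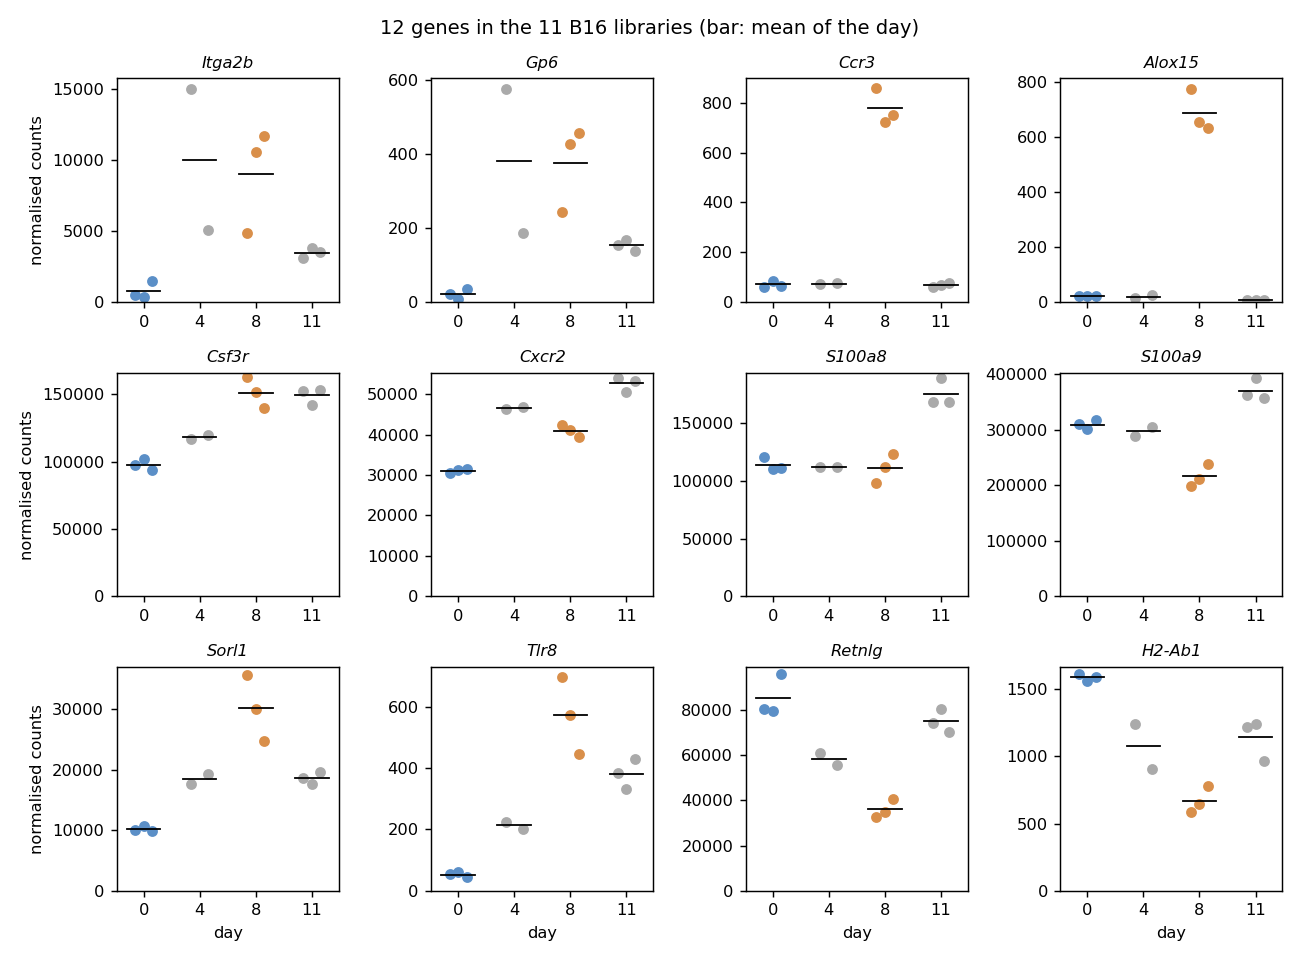
Normalised counts (y axes, from 0) of 12 genes in each of the 11 B16 libraries by day (x axes), with the mean of the day as a bar. Ccr3 and Alox15 are high at day 8 only, Itga2b and Gp6 are high at days 4 and 8 with wide spread, Csf3r and Sorl1 are higher at day 8 than at day 0, S100a8 overlaps between the 2 days, and S100a9, Retnlg and H2-Ab1 are lower at day 8.

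Genes of neutrophil granules and of mature neutrophils split in both directions. Of 16 secondary and tertiary granule genes 8 rose and 6 fell (median 0.39, 87.5% called, against 56.0% of all genes). Their summed level was lower at day 8, at 210500.5 to 219089 at day 0 and 194145 to 201256 at day 8. Higher were the neutrophilic granule protein gene Ngp (1.36 ± 0.18), the lactoferrin gene Ltf (0.96 ± 0.17), the chitinase-like gene Chil3 (1.34 ± 0.23) and the olfactomedin gene Olfm4 (1.91 ± 0.19). Ngp stood at 1575, 1522 and 2117 at day 0 and 5408, 4369 and 3625 at day 8, and Ltf at 1023, 1039.9 and 1113 and 2679, 2021 and 1604. The membrane metalloproteinase gene Mmp25 went from 686, 742 and 844 to 2644, 2366 and 1997 (log2 difference 1.62 ± 0.12 SE, adjusted p = 5.32e-07). Lower at day 8 were the protease inhibitor gene Slpi, from 33021, 32317 and 30364 to 13085, 13767 and 16058 (log2 -1.16 ± 0.08), and the peptidoglycan-binding gene Pglyrp1, from 22730.2, 21738 and 22819.8 to 11072, 11918 and 12912 (log2 -0.91 ± 0.06). The counts became 10 risen and 3 fallen without the length trend. The 2 primary granule genes above the minimum mean, the serine protease genes Prtn3 (-1.61 ± 0.23) and Prss57 (-0.69 ± 0.17), fell from low levels.

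Among 22 mature neutrophil genes 5 rose and 12 fell (median -0.38, 77.3% called, against 56.0% of all genes). The direction of the calprotectin genes depended on the length trend. S100a8 stood at 120053, 110352 and 111183 at day 0 and 98121, 112077 and 123096 at day 8, with overlapping libraries, and was not called (log2 difference -0.04 ± 0.08 SE, adjusted p = 0.685). S100a9 stood at 309766, 300852 and 318188 and 199290.2, 211936 and 238059, and all day 8 libraries were lower (log2 difference -0.52 ± 0.07 SE, adjusted p = 4.47e-05). Both transcripts are short (498 and 519 bases), and with the length trend removed S100a8 was higher at day 8 (log2 0.80, adjusted p = 1.51e-07) and S100a9 was also higher (log2 0.31, adjusted p = 0.000145). The resistin-like gene Retnlg fell from 80549, 79521 and 95795 to 32528, 34993 and 40719.6 (log2 -1.24 ± 0.09; -0.46, adjusted p = 0.000517, with the trend removed). The methionine sulfoxide reductase gene Msrb1 (-1.07 ± 0.07), the whey acidic protein family gene Wfdc21 (-1.16 ± 0.10) and the formyl peptide receptor gene Fpr2 (-0.71 ± 0.07) fell as well. Sorl1, a sorting receptor of endosomes, rose from 9980.1, 10752 and 9812 to 35659, 30057 and 24699 (log2 difference 1.55 ± 0.10 SE, adjusted p = 2.63e-07). It has a long transcript (10715 bases), and its difference with the trend removed was 1.03 (adjusted p = 2.48e-07). Over the list the counts became 9 risen and 8 fallen in that fit, with a median of 0.09.

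Among receptors and kinases that receive myeloid growth factors, rises outnumbered falls. Of 25 cytokine receptor and STAT signalling genes 14 rose and 7 fell (median 0.19), against 28.6% and 27.3% of all genes, so that the share fallen was near the background. After removal of the length trend 12 rose and 8 fell. With the same upper quartile 11 rose and 8 fell (median 0.08), and with the same total 15 rose and 4 fell. Csf3r (chromosome 4, 126023441 to 126044975), the receptor for granulocyte colony-stimulating factor, stood at 97346, 102018 and 93544 at day 0 and 162404, 151415 and 139806 at day 8 (log2 difference 0.63 ± 0.06 SE, adjusted p = 4.45e-06), with no overlap. Csf1r, the receptor for macrophage colony-stimulating factor, went from 5319, 5357 and 5083 to 7761, 7469 and 7209 (log2 0.51 ± 0.06). Of the chains of the interleukin-6 and GM-CSF receptors, Il6ra (0.78 ± 0.11) and Csf2rb (0.67 ± 0.07) rose. The tyrosine kinase genes Jak1, from 4222, 4355 and 4069 to 10042, 9240.4 and 8578 (log2 1.14 ± 0.07), Jak2 (0.97 ± 0.06) and Tyk2 (0.98 ± 0.10) rose with them, and so did the co-receptor Il1rap (0.88 ± 0.07) of interleukin-1. Stat3, which passes on the signal of several of these receptors, stood at 6457, 6632 and 7096 and 6611, 6341 and 5811 and was not called (log2 -0.11 ± 0.06, adjusted p = 0.145), but was lower with the same upper quartile (log2 -0.22, adjusted p = 0.0115) and with the length trend removed (-0.41, adjusted p = 1.73e-05). The feedback inhibitor gene Socs1 fell from 581, 582 and 2171 to 241, 241 and 281 (log2 -1.83 ± 0.38), and the interferon-gamma receptor chain Ifngr2 (-0.60 ± 0.06) fell. Of 14 myeloid lineage factor genes 2 rose and 5 fell (3 and 3 with the length trend removed), the falls including Cebpb (-0.64 ± 0.13), Cebpd (-0.45 ± 0.07), Spi1 (-0.32 ± 0.05) and Irf8 (-0.86 ± 0.17). The Cebpb call ended with the length trend removed (-0.25, adjusted p = 0.152). The count risen was 1 without day 0 replicate 1 and without day 0 replicate 3, and the median of that list (-0.02) was 0.10 with the same total.

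The adhesion genes that passed the test were higher at day 8. Of 16 integrin, selectin and adhesion genes 11 rose and 0 fell (median 0.54), against 28.6% and 27.3% of all genes. The beta-2 integrin chains, by which neutrophils hold on to vessel walls, were among them: Itgam (CD11b) went from 14284, 14663 and 14030.3 to 25923, 23279.8 and 20862 (log2 difference 0.70 ± 0.07 SE, adjusted p = 3.02e-06), Itgal (CD11a) from 12101, 12069 and 12231 to 23679, 21653 and 19674 (log2 0.83 ± 0.06) and their partner Itgb2 from 20927, 21470.4 and 19157 to 29273, 28274 and 28061 (log2 0.48 ± 0.05). The groups did not overlap in any of the 3, as in 63.3% of all genes. Ceacam1, an inhibitory adhesion receptor, rose from 755, 730.2 and 663 to 1613, 1477 and 1239.6 (log2 1.00 ± 0.11). The other rises included Itgb1 (1.42 ± 0.24), Pecam1 (1.69 ± 0.30) and Fermt3 (1.22 ± 0.20), which platelets also express. In those 3 genes day 8 replicate 1 was the lowest of its group, as in the platelet markers; the part of platelets was not tested. With the length trend removed 10 rose and 2 fell, and with the same upper quartile 10 rose and 1 fell.

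Chemoattractant receptors split evenly: of 15, 6 rose and 6 fell (median 0.28, 80% called, against 56.0% of all genes). Cxcr2, through which neutrophils leave the marrow, rose from 30567, 31310.3 and 31478 to 42468, 41116 and 39445 (log2 difference 0.40 ± 0.05 SE, adjusted p = 1.89e-05). Cxcr4, which holds them in the marrow, fell from 27943, 26245 and 23791 to 16485, 16082 and 17502 (log2 -0.64 ± 0.06). Every day 8 library was above every day 0 library in the first gene and below in the second. Ptafr, the receptor for platelet-activating factor, rose from 529, 519 and 488 to 2969.6, 2646 and 2165 (log2 difference 2.33 ± 0.11 SE, adjusted p = 3.51e-08). The complement receptor genes moved apart, C5ar1 down from 17556, 17419.6 and 17040.3 to 11504, 11664 and 11577 (log2 -0.58 ± 0.04) and C3ar1 (1.66 ± 0.34) up.

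Toll-like receptors (TLRs), which sense microbial products and nucleic acids, rose more often than they fell. Of 20 receptor and adaptor genes 10 rose and 3 fell (median 0.28), against 28.6% and 27.3% of all genes, and with the length trend removed 9 rose and 4 fell. With the same upper quartile 8 rose and 5 fell (median 0.17), and with the same total 10 rose and 3 fell. Tlr8, an endosomal RNA sensor, went from 53.2, 60.5 and 45.3 to 697, 572 and 447 (log2 difference 3.39 ± 0.16 SE, adjusted p = 4.53e-08), and Tlr5, the flagellin receptor, from 103, 112 and 74 to 431, 337 and 266 (log2 1.82 ± 0.21). The gaps between the days were wide in both. Tlr13, a sensor of bacterial ribosomal RNA, rose from 3767, 3756 and 3989 to 6784, 5898 and 5527 (log2 0.66 ± 0.08), and Tlr6 (0.53 ± 0.08) and Tlr7 (0.70 ± 0.18) followed. Of 10 inflammasome genes 3 rose and 2 fell, with Nlrp3 (0.32 ± 0.07), Mefv (0.47 ± 0.07) and Nlrp1b (1.10 ± 0.18) up and the pore-forming Gsdmd (-0.51 ± 0.05) down; 5 rose without day 0 replicate 3, and 5 rose and 1 fell with the length trend removed. Of 16 C-type lectin and TREM receptor genes 4 rose and 7 fell, including the beta-glucan receptor Clec7a (0.49 ± 0.06) and the inhibitory receptor Lilrb4a (0.83 ± 0.06) up and Trem1 (-0.38 ± 0.05) and the adaptor Hcst (-1.0 ± 0.10) down, and 7 rose and 3 fell with the length trend removed. The median of that list (-0.10) was 0.02 with the same total. The Hcst call ended with the length trend removed (log2 -0.12, adjusted p = 0.0875). Of 6 Fc receptor genes 2 rose and 3 fell: the common gamma chain gene Fcer1g fell from 25983, 25240.2 and 26181 to 11145, 12170.1 and 12911 (log2 -1.10 ± 0.06; -0.37, adjusted p = 1.75e-05, with the trend removed), and the count risen was 1 without day 0 replicate 1 or day 8 replicate 1. Of 9 NADPH oxidase genes 0 rose and 4 fell, among them Cyba (-0.96 ± 0.08) and Rac2 (-0.42 ± 0.04), whereas with the same total 2 rose and 2 fell and with the length trend removed 1 rose and 4 fell.

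Inflammatory cytokine genes passed the test about as often as genes in general. Of 15, 1 rose and 7 fell (53.3% called, against 56.0% of all genes; 27.3% of all genes fell), with a median of -0.40, and with the length trend removed 2 rose and 4 fell and the median was 0.04. Il1b fell from 72964, 73403 and 73748 to 49369.9, 49329 and 52135 (log2 difference -0.55 ± 0.05 SE, adjusted p = 3.54e-06), without overlap. The call ended with the trend removed (-0.10, adjusted p = 0.089). The oncostatin M gene Osm went from 1783, 1869.5 and 1840.0 to 956, 919 and 992 (log2 -0.94 ± 0.08; -0.77, adjusted p = 6.44e-06, with the trend removed). The chemokine gene Ccl4 (-1.49 ± 0.20) and the interleukin-1 receptor antagonist Il1rn (-0.40 ± 0.08) fell. The NF-kB and heat shock lists had medians near 0, which turned negative with the same upper quartile (-0.10 and -0.08) and with the length trend removed (-0.21 and -0.09). Among 18 NF-kB subunit and feedback genes 7 rose and 7 fell. The subunit genes Nfkb1 (0.70 ± 0.06) and Rel (2.23 ± 0.23) rose. The inhibitor Nfkbia (-0.76 ± 0.15), the regulator Bcl3 (-0.77 ± 0.07) and the response gene Ier3 (-0.95 ± 0.09) fell. Rel stood at 33.4, 34.9 and 53 and 260.5, 193 and 136. Of 22 immediate early genes 5 rose and 10 fell. Egr1 rose from 116, 139.5 and 154 to 643, 416 and 343 (log2 1.72 ± 0.18) and Fos (0.57 ± 0.11) and Jun (0.68 ± 0.10) rose, whereas Jund (-1.0 ± 0.06), Zfp36 (-0.58 ± 0.06), Klf2 (-0.65 ± 0.05) and Btg2 (-0.68 ± 0.05) fell. Of 11 heat shock genes 4 rose and 3 fell, with Hspa8 (0.67 ± 0.07) up and Hspe1 (-1.62 ± 0.21) down.

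Several genes of lipid mediator synthesis rose. Of 14 eicosanoid synthesis genes 7 rose and 2 fell, 5 of the rises at least 2-fold against 11.1% of all genes (median 0.28); the count fallen was 1 without day 0 replicate 1 or 2 or day 8 replicate 1 or 2, and 1 with the length trend removed. The phospholipase gene Pla2g4a, which frees arachidonic acid, rose from 74.3, 58.5 and 91.6 to 216, 241 and 244 (log2 difference 1.65 ± 0.20 SE, adjusted p = 2.6e-05). The inducible cyclooxygenase gene Ptgs2 rose from 370.2, 395 and 265 to 784, 626 and 655 (log2 1.02 ± 0.15). The groups did not overlap in this gene or in Pla2g4a, as in 63.3% of all genes. On the leukotriene side Alox5 (0.58 ± 0.06) and Lta4h (1.02 ± 0.11) rose and Alox5ap, the helper protein of Alox5, fell from 33339, 33046 and 33368 to 17199.9, 18415 and 20348 (log2 -0.84 ± 0.06; -0.35, adjusted p = 4.42e-05, with the length trend removed). Ptgs1 (1.28 ± 0.23) and Tbxas1 (1.55 ± 0.22), which make thromboxane in platelets, rose with day 8 replicate 1 lowest of its group, as the platelet markers did, and the part of platelets was not tested. Of 8 annexin genes 3 rose and 2 fell, including Anxa1 (0.26 ± 0.05) and Anxa6 (0.62 ± 0.05) up and Anxa2 (-0.64 ± 0.05) down; 1 fell without day 0 replicate 3 or any 1 of the day 8 libraries, and the median moved from -0.04 to 0.09 with the same total and to 0.18, with 3 rises and 1 fall, with the length trend removed.

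Effectors by which suppressor cells act on T cells moved in both directions. Of 20 tested, 9 rose and 3 fell (median 0.13). The test called 60% of them, against 56.0% of all genes. It called 84.6% of the hypoxia response genes and 70% of the glycolysis genes described below. Arg1, arginase 1, was under the minimum mean, with 3.72, 4.1 and 1.1 normalised counts at day 0 and 0 in each day 8 library. Arg2 stood at 3025, 2917 and 2848 and 2782, 2740.3 and 2862 (log2 -0.07 ± 0.06, adjusted p = 0.336), was lower with the same upper quartile (log2 -0.18, adjusted p = 0.0341) and higher with the length trend removed (0.35, adjusted p = 0.000147). Nos2 stood at 1.24, 3.08 and 14.3 and 4.24, 0.873 and 0 and was not called (adjusted p = 0.158; 0.0475 without day 8 replicate 1). The checkpoint ligand gene Cd274 (PD-L1) stood at 1922, 1879 and 5019 and 1939, 1948 and 1996 (log2 -0.42 ± 0.27, adjusted p = 0.209), the high value being day 0 replicate 3. Rises were called in Ptgs2, in Hif1a from 702, 746 and 872 to 1352, 1285 and 1224 (log2 difference 0.74 ± 0.08 SE, adjusted p = 1.04e-05), in Vegfa from 379, 360.0 and 371 to 671, 629 and 609 (log2 0.78 ± 0.07), and in Entpd1 (0.50 ± 0.05), Lgals9 (0.44 ± 0.05) and the fatty acid transporter gene Slc27a2 (2.52 ± 0.59). Of 13 hypoxia response genes 4 rose and 7 fell, and besides Hif1a and Vegfa the rest included falls of Bnip3 (-0.72 ± 0.10) and P4ha1 (-0.87 ± 0.12). Of 20 glycolysis genes 4 rose and 10 fell (median -0.17): Ldha, lactate dehydrogenase A, fell from 7032, 6808 and 7712 to 3305, 3398 and 3969.9 (log2 -1.02 ± 0.07), with Pgk1 (-0.68 ± 0.05) and the lactate exporter Slc16a3 (-0.74 ± 0.06). These counts were the same with the length trend removed. Eno1 rose (log2 1.96 ± 0.11), and its reads may be shared with a near-identical copy of the gene.

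Interferon-induced genes were called no more often than genes in general, and day 0 replicate 3 stood above the other day 0 libraries. Among type I interferon response genes, 15 of 34 fell while 3 rose (median -0.24; 52.9% called, against 56.0% of all genes), with a summed level of 113428 to 173988 at day 0 and 107670.1 to 108987 at day 8. Without day 0 replicate 3, 11 rose and 15 fell (median -0.06). The antiviral gene Rsad2 went from 9046, 9582 and 12733 to 5919, 5618 and 5820.0 (log2 difference -0.84 ± 0.11 SE, adjusted p = 3.7e-05), Ifi27l2a from 8321, 8058 and 11239 to 3467, 3856 and 4334 (log2 -1.23 ± 0.13) and the oligoadenylate synthetase gene Oas1g from 429.7, 424 and 786 to 198, 182 and 205 (log2 -1.42 ± 0.19). In each the day 8 libraries were below all 3 day 0 libraries, also those without the raised level. The exonuclease gene Isg20 (0.70 ± 0.09) rose. Of 18 interferon-gamma induced genes 1 rose and 5 fell (median -0.50; 33.3% called): the guanylate-binding protein gene Gbp2 stood at 4862, 5011 and 21410.2 and 2994, 3172 and 3223 (log2 -1.36 ± 0.41), Gbp4 (-1.96 ± 0.47) and the transcription factor Irf1 (-0.87 ± 0.18) fell, and Gbp9 (1.25 ± 0.17) rose. Without day 0 replicate 3, 4 rose and 4 fell and the median turned to 0.12. Leaving out day 0 replicate 2 gave 8 falls, and edgeR and DESeq2 on the recovered reads also gave 8. Among 7 Schlafen genes 4 rose and 3 fell (4 and 2 with the length trend removed), among them the abundant Slfn4, from 26348, 28970.1 and 36125 to 49778, 45694 and 43904 (log2 0.62 ± 0.10). Slfn1 (-0.35 ± 0.05) and Slfn2 (-0.53 ± 0.08) fell, Slfn1 without a call when the length trend was removed (-0.07, adjusted p = 0.239).

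Most antigen presentation genes fell. Of the MHC class II genes, 10 of 12 fell and 0 rose, against 27.3% of all genes (median -0.87), and their summed level was 11259.8 to 11688 at day 0 and 5114 to 6145 at day 8. H2-Ab1, a class II beta chain, went from 1611, 1561 and 1587 to 586, 643 and 782 (log2 difference -1.25 ± 0.13 SE, adjusted p = 7.48e-06), H2-Eb1 from 1348, 1288 and 1324 to 465, 525 and 616 (log2 -1.31 ± 0.14) and the invariant chain gene Cd74 from 5750.3, 5592 and 5480.3 to 2628, 2673 and 3106 (log2 -1.0 ± 0.13). The day 0 libraries were close to each other and well above day 8. Class II genes are typical of B cells, and of 14 B cell markers 1 rose and 9 fell (median -0.90; summed level 5135 to 5515 and 2616 to 2873), the rise being lost when any 1 of the 6 libraries was left out. The B cell receptor chain gene Cd79a fell from 2095, 2072 and 1977 to 625, 672 and 826 (log2 -1.54 ± 0.16), and Cd79b (-1.17 ± 0.13), the transcription factors Ebf1 (-1.37 ± 0.17) and Pax5 (-2.05 ± 0.27) and the kinase Blk (-1.39 ± 0.17) fell. The part of B cells in the class II genes was not tested. With the length trend removed 8 class II genes and 8 B cell markers fell. Of the MHC class I genes, 11 of 14 fell while 2 rose (median -0.86; 9 and 2, median -0.53, with the length trend removed): H2-K1 went from 33019, 33557 and 51256 to 17455, 18163 and 18827 (log2 -1.08 ± 0.13) and H2-D1 from 70913, 69739 and 82679 to 35344, 37437 and 39738 (log2 -0.99 ± 0.07). The peptide loading genes Tap2 (-0.94 ± 0.12) and Tapbp (-0.95 ± 0.10) fell with them. B2m, the light chain of class I, rose from 38336, 36802 and 51647 to 48961, 61357 and 66236 (log2 0.48 ± 0.13). Reads of H2 genes, which are close relatives, cannot be placed with certainty.

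Most genes of ribosomes and of mitochondrial respiration fell, and their transcripts are short. Falls were called in 73 of 80 cytosolic ribosomal protein genes and rises in 0 (median -0.86; median length 1076 bases against 3341 for all genes tested), and their summed level was 282147 to 298358 at day 0 and 133376 to 166217 at day 8. Rps21 went from 2180.5, 2015 and 2045 to 568, 662 and 786 (log2 difference -1.64 ± 0.10 SE, adjusted p = 1.47e-07) and Rpl38 from 1471, 1426 and 1497 to 395, 476 and 549 (log2 -1.64 ± 0.10), with Rpl37a (-1.59 ± 0.10) and Rps27a (-1.45 ± 0.08). Within day 8 the sum was lowest in replicate 1 and highest in replicate 3, as the length balance was. With the length trend removed 52 ribosomal protein genes fell, 12 rose and the median was -0.37. Processed copies of these genes may share their reads. Of 77 respiratory chain and ATP synthase genes 5 rose and 52 fell (median -0.58), among them Ndufb7 of complex I, from 1571, 1495 and 1551 to 476, 509 and 596 (log2 -1.55 ± 0.09), Uqcrh (-1.44 ± 0.10) of complex III and Cox4i1 (-1.27 ± 0.09) of complex IV. The counts were closer with the length trend removed, where 18 rose and 25 fell (median -0.02). Of 74 mitochondrial ribosomal protein genes 1 rose and 42 fell (median -0.56; 3 risen and 30 fallen with the trend removed), the rise being lost without day 0 replicate 1 or 2 or day 8 replicate 1 or 2, with Mrpl23 (-1.59 ± 0.13) and Mrpl33 (-1.16 ± 0.10) as examples. Of 34 constitutive proteasome genes 4 rose and 16 fell, and with the trend removed 11 rose and 10 fell; the count risen was 1 without day 0 replicate 3 and 2 without any 1 of the day 8 libraries, and with the same upper quartile 0 rose. Examples are Psmd13 (-0.85 ± 0.08) and Psmb1 (-0.84 ± 0.09).

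**Figure D4:**
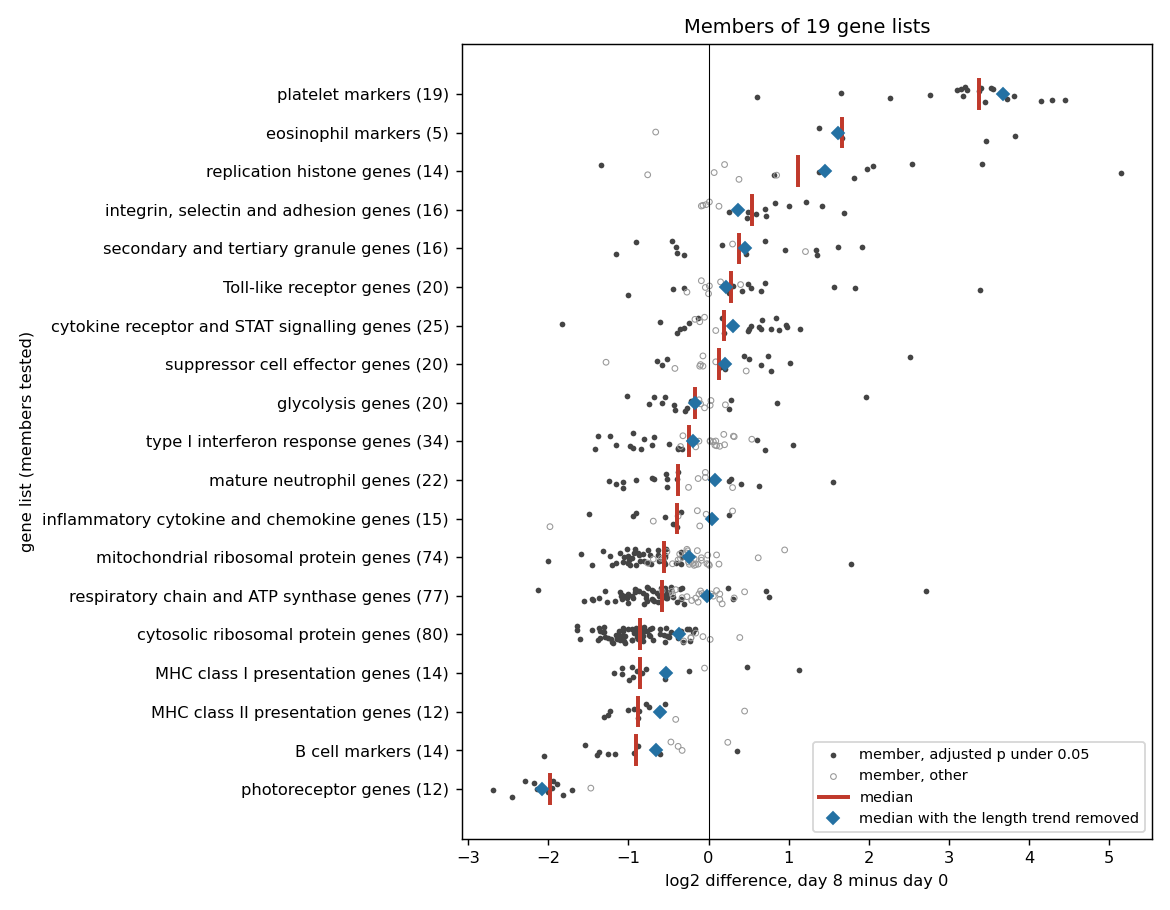
Log2 difference between day 8 and day 0 (x axis) of each tested member of 19 gene lists (y axis, with the number of members tested). Filled points passed an adjusted p of 0.05, the red bar is the list's median and the blue diamond is the median with the length trend removed. The platelet markers all lie above 0. The respiratory chain median moves from -0.58 to -0.02 when the trend is removed, and the mature neutrophil median from -0.38 to 0.09.

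Stress, redox and lipid genes moved in both directions. The test called 78.9% of the antioxidant, 79.2% of the unfolded protein response and 52.6% of the cholesterol genes, against 56.0% of all genes. It called 46.2% of the BCL2 family genes and 64.3% of the clock genes. Of 19 antioxidant genes 5 rose and 10 fell: thioredoxin, Txn1, fell from 19973, 19854 and 22178 to 7344, 7858 and 9212 (log2 -1.35 ± 0.10), as did Gpx1 (-0.77 ± 0.07) and Prdx5 (-0.98 ± 0.09). Catalase, Cat, rose from 139.9, 105 and 266 to 1152, 2041 and 2030.2 (log2 3.41 ± 0.39). Day 8 replicate 1 was the lowest of its group in Cat. Of 24 unfolded protein response genes 7 rose and 12 fell (8 and 8 with the same total, 5 and 9 with the length trend removed): the sensor genes Ern1, from 68.1, 75.9 and 55.2 to 597, 538 and 359 (log2 difference 2.87 ± 0.18 SE, adjusted p = 1.62e-07), and Eif2ak3 (0.88 ± 0.09) rose, and Syvn1 (-0.58 ± 0.07) and Creld2 (-0.91 ± 0.10) fell. Of 19 cholesterol synthesis and uptake genes 3 rose and 7 fell, with Cyp51 (-1.02 ± 0.21) and Msmo1 (-0.56 ± 0.13) down. Of 13 BCL2 family genes 0 rose and 6 fell, with Mcl1, which keeps neutrophils alive, down from 52532, 54668 and 55207 to 37422, 35069 and 36182 (log2 -0.58 ± 0.05), and Bcl2 (-0.97 ± 0.19) down. With the same total 3 fell, and with the length trend removed 3 fell and 1 rose. Of 14 circadian clock genes 7 rose and 2 fell (5 and 2 with the length trend removed), including Cry1 (0.84 ± 0.10), Per2 (0.66 ± 0.10) and Arntl (1.05 ± 0.22) up. Clock gene falls numbered 0 without day 0 replicate 1, day 8 replicate 1 or day 8 replicate 2 and 1 without either other day 0 library. The hour at which blood was taken is not given in the sources used here.

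Proliferation genes were called in 24.1% of the cell cycle list, against 56.0% of all genes, and most of the histone genes that did were higher. Of 29 cell cycle genes 4 rose and 3 fell (median -0.02), Kif23 (0.81 ± 0.06) a rise and Tyms (-0.94 ± 0.24) a fall. Mki67, at 129, 139.5 and 104 and 254, 238 and 172 (log2 0.82 ± 0.17), was not called with the length trend removed (0.32, adjusted p = 0.082). The count risen was 2 without day 8 replicate 2, and the list's median was 0.11 with the same total and -0.13 with the same upper quartile (0.16, with 3 rises and 4 falls, with the length trend removed). Of 14 replication histone genes tested, of 68 listed, 8 rose and 1 fell, 7 of the rises at least 2-fold (median 1.11); with the length trend removed 10 rose and 0 fell. The minimum mean is taken over all B16 libraries, so a gene near 0 at day 0, such as Hist1h4m, passes it only through the other days. Without a minimum mean 13 rose and 1 fell (median 0.76), and with a minimum mean of 20, 6 rose and 0 fell (median 1.38). Hist1h1c, a linker histone gene, went from 2169, 2092 and 1795 to 3062, 3700.3 and 3941 (log2 0.82 ± 0.13), and Hist1h1e (1.98 ± 0.34) and Hist3h2a (1.38 ± 0.18) rose. Histone genes resemble each other closely and mostly lack a poly-A tail, and the part of read placement and of RNA selection in these levels was not tested.

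Monocyte genes and markers of other cells were measured in the same libraries. The test called 55.6% of the classical and 66.7% of the non-classical monocyte genes, against 56.0% of all genes. Of 18 classical monocyte genes 3 rose and 7 fell (median -0.35), and the excess of falls ended with the length trend removed, where 3 rose and 3 fell (median -0.13). Among them were Ly86 (-1.32 ± 0.20) and Irf8 (-0.86 ± 0.17), lower at day 8, and F13a1 (3.72 ± 0.49) and Fn1 (2.31 ± 0.26), higher at day 8. F13a1, a coagulation factor gene that platelets carry, was, like the platelet markers, highest in replicate 3 at day 0 and lowest in replicate 1 at day 8. Among non-classical monocyte genes, 6 of 12 fell while 2 rose (median -0.67), with Gngt2 (-0.89 ± 0.10) and Pou2f2 (-0.81 ± 0.11) down and Treml4 (0.58 ± 0.08) and Itgal (0.83 ± 0.06) up. Of 6 tissue macrophage markers tested, of 16 listed, 4 rose and 1 fell. The summed level of the list was nevertheless lower, at 16546 to 17553 at day 0 and 14741 to 15730 at day 8. The counts depended on the minimum mean, which a gene near 0 at day 0 passes only through the other days. Without a minimum mean 9 rose, and with a minimum mean of 20, 1 rose and 1 fell (median 0.52). Adgre1, which encodes F4/80 and is also made by eosinophils, rose from 724, 759.9 and 645 to 1528, 1362 and 1297 (log2 0.97 ± 0.09). The complement genes C1qa (2.69 ± 0.71) and C1qc (3.77 ± 0.57) rose to no more than 20.4 normalised counts. The fall was that of Slc40a1, which was not called with the same total (log2 -0.13, adjusted p = 0.0975). Of 16 T cell markers 3 rose and 1 fell (4 and 0 with the length trend removed), with Cd28, Lat (which platelets also express) and Tcf7 up and Cd3d down. Cd3e, another chain of the T cell receptor complex, stood at 24.8, 25.6 and 40.8 and 22.9, 22.7 and 29.6. The counts risen and fallen were 1 and 0 of 6 NK cell markers, 1 and 0 of 5 dendritic cell markers, 2 and 0 of 7 progenitor markers, 0 and 2 of 4 plasma cell markers and 0 and 2 of 4 erythroid markers. The 2 plasma cell falls became 1 without day 0 replicate 2 or 3 or day 8 replicate 2 or 3, and the 2 erythroid falls became 0 without day 8 replicate 2 and 1 without day 0 replicate 2 or 3 or day 8 replicate 1. Without the length trend 1 plasma cell and 0 erythroid markers fell, and the erythroid median turned from -0.14 to 0.32. The single risen NK marker, Prf1, was not called without day 0 replicate 3 (log2 1.38, adjusted p = 0.0552), nor the dendritic marker Clec9a without day 0 replicate 2 (log2 0.87, adjusted p = 0.0521). Epithelial, and endothelial and fibroblast markers gave no call among 3 and 2 tested, though 2 epithelial markers rose without day 0 replicate 3, and 1 dendritic cell marker fell without day 0 replicate 1. Of 4 melanocyte markers 1 fell, the tyrosinase gene Tyr, from 102, 87.2 and 94.9 to 56, 52.4 and 71.9 (log2 -0.66 ± 0.16), and none rose (2 fell with the length trend removed). Their summed level was 359.8 to 368 at day 0 and 284 to 325 at day 8.

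The largest falls included genes that are not typical of blood cells, and some of these had a course over the days like that of the ribosomal RNA precursor. Rhox8 (chromosome X, 37874780 to 37890766), a homeobox gene known from the reproductive tract, stood at 359, 284 and 593 at day 0 and 17, 25.3 and 26.2 at day 8 (log2 difference -4.07 ± 0.25 SE, adjusted p = 1.49e-07), and at 68.8 and 79.5 and 127, 126 and 101 at days 4 and 11. Wnt4, a secreted signalling protein, went from 167, 165 and 177 to 18.7, 16.6 and 7.61 (log2 -3.57 ± 0.27) and the bone endopeptidase gene Phex from 65.6, 74.9 and 93.8 to 5.94, 4.36 and 5.92 (log2 -3.62 ± 0.26). The epithelial integrin gene Itgb6 (-3.54 ± 0.39), the netrin receptor gene Dcc (-3.54 ± 0.29), Mcc (-3.61 ± 0.47) and the melanocortin receptor gene Mc1r (-3.50 ± 0.39) completed the named genes among the 12 largest falls, the other 5 being cDNA clones. Of these, E130218I03Rik did not return at day 11 (0, 0.988 and 0) and C030013C21Rik overlapped between days 8 and 11. Rn45s itself went from 346423, 356482 and 427885 at day 0 through 67302 and 75013 at day 4 to 60999, 65093 and 53489 at day 8 (log2 -2.65 ± 0.11) and was at 138714, 157607 and 115769 at day 11. Lars2, the mitochondrial leucyl-tRNA synthetase gene, chosen after its values were seen, went from 52898, 51581 and 61174 to 5569, 5476 and 4826 (log2 -3.38 ± 0.11) over the same days. In Rhox8, Wnt4, Phex, Lars2 and Rn45s every day 0 library was above every library of the other days, and every day 11 library was above every day 8 library. The part of ribosomal RNA reads in these falls was not tested.

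Transcripts of retinal photoreceptor genes were also counted in the blood samples, at lower levels on day 8. Of 12 photoreceptor genes 0 rose and 11 fell (median -1.98), and their summed level was 9320.0 to 17841 at day 0, 1387 to 5992 at day 8, 3282 and 20913 at day 4 and 194 to 402 at day 11. Rcvrn, recoverin, stood at 254, 180.5 and 309 at day 0 and 13.6, 48 and 74.4 at day 8 (log2 -2.69 ± 0.65). The day 8 libraries differed among themselves by several fold, and all lay below day 0. The count fallen was 2 without day 8 replicate 1, 6 without day 0 replicate 3 and 7 without day 0 replicate 1. How and where blood was drawn is not given in the sources used here, and its part in these levels was not tested.

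**Figure D5:**
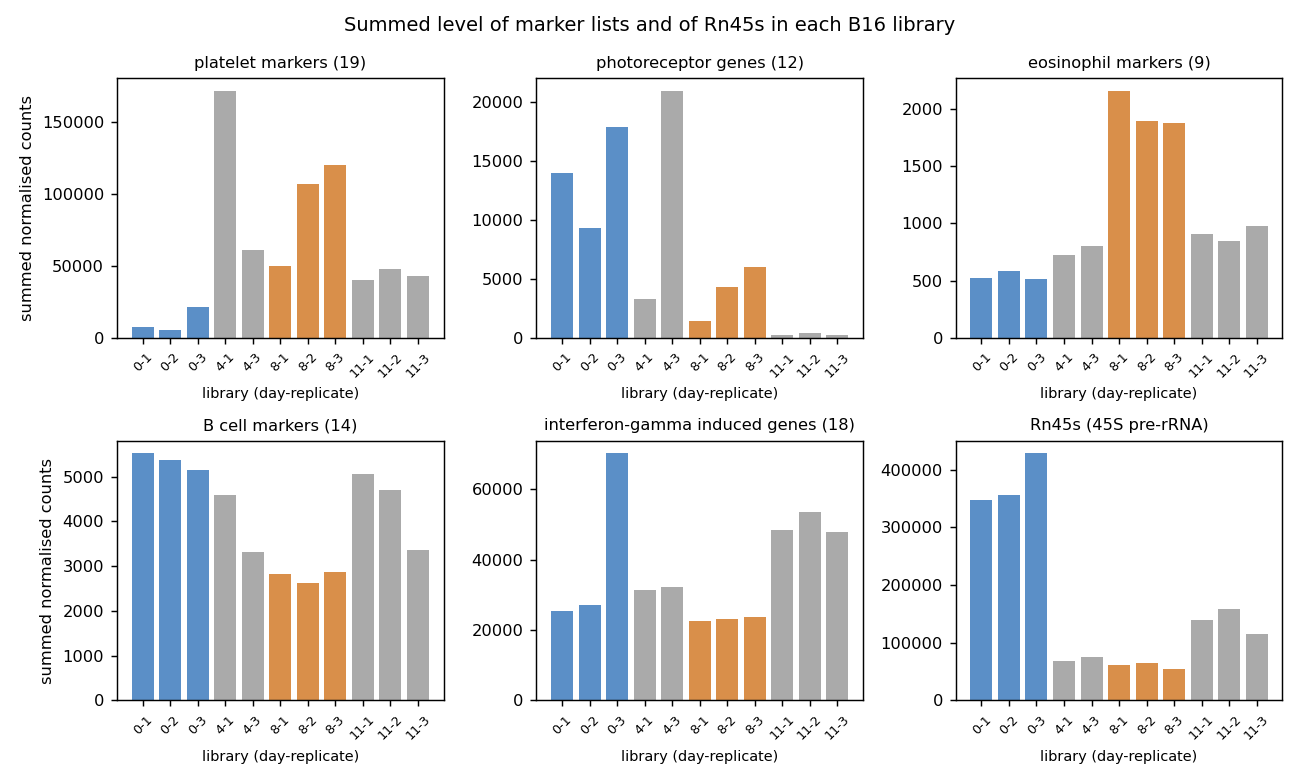
Summed normalised counts (y axes, from 0) of 5 marker lists and of Rn45s in each of the 11 B16 libraries (x axes, day and replicate number), with day 0 in blue and day 8 in orange. Platelet and photoreceptor sums differ widely between libraries of the same day, eosinophil markers are highest in the 3 day 8 libraries, interferon-gamma induced genes are highest in day 0 replicate 3, and Rn45s is highest in the 3 day 0 libraries.

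Set beside its neighbours, day 8 differed from day 4 in 3190 genes (26.7%) and day 11 from day 8 in 4313 (36.2%). Without day 4 replicate 3, which leaves 1 day 4 library that is assumed to vary like the others, 2122 genes differed between days 8 and 4. With the same total, 74.9% of the day 8 against day 4 calls were higher at day 8 (47.3% as deposited) and 18.5% of the day 11 against day 8 calls were higher at day 11 (51.8% as deposited), the medians of all genes being 0.14 and -0.30. The 3 comparisons share the day 8 libraries or the fit. S100a8 stood at 111622 and 111924 at day 4 and 167642, 188648 and 167562 at day 11, above all day 8 libraries at day 11 (log2 0.66 ± 0.08, adjusted p = 5.99e-05). Csf3r at day 11 (152739, 141692 and 153283) was not called against day 8 (adjusted p = 0.858). The interferon gene Rsad2 was at 14804 and 17282 at day 4 and 12422, 14212 and 13433 at day 11, and day 8 was lower than both (adjusted p = 7.93e-06 and 6.2e-06). Prok2, a secreted chemoattractant gene named after its values were seen, stood at 198, 201 and 917 at day 0, 1788 and 671 at day 4, 36.5, 39.3 and 28.8 at day 8 and 589, 693 and 455 at day 11, so that every day 8 library was below every library of another day (log2 -3.23 ± 0.50 against day 0, adjusted p = 0.000153). Retnlg, H2-Ab1 and S100a9 likewise stood higher at day 11 than at day 8 (log2 1.06 ± 0.09, 0.77 ± 0.13 and 0.78 ± 0.07, adjusted p at most 0.000874). Both of these comparisons also followed transcript length. The median log2 difference of day 11 from day 8 was 0.24 in the shortest decile and -0.31 in the longest, and that of day 8 from day 4 was -0.23 and 0.23. With the length trend removed 3015 genes differed between days 8 and 4 and 3947 between days 11 and 8. S100a8 and S100a9 have short transcripts, and the values of single genes from that fit are not given here for these days.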

How the data were processed

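The deposited B16 table gives signal that its header names normalized counts, for 24421 genes and 11 libraries. Per the submitters' processing notes, the tools were TopHat2 2.0.10, cutadapt, DESeq2 1.6.3 and HTSeq 0.6.1p1, with build mm10. The sources used here give neither annotation nor strandedness, so genes with antisense partners or close copies are uncertain. All values were whole multiples of 1 step per library within a tolerance of 0.001 of the count, and these recovered reads served the count tools; 100% of values came out whole. The tolerance grows with the count, so at high counts any value passes and the share is informative for low counts only.

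limma 3.58.1 (R 4.3.3) was fitted with a trend to log2(value + 1) over all 11 B16 libraries with a mean per day, for genes with a mean of at least 5, with Benjamini-Hochberg adjustment at 0.05. Fold changes are on that scale, which understates low genes. The fit was tested on simulated data in which 200 genes changed and no length trend was present. That test does not show how the fit performs with the many changes and the length trend of these data. edgeR 4.0.16, DESeq2 1.42.0 and limma-voom on recovered reads, other scalings, pseudocounts and filters, and leaving out libraries were alternatives; removal of the trend on longest GENCODE M21 transcript length was chosen after seeing the data. The members and gene lists were chosen with earlier results of these data known.

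Genes were named if among the 12 largest called differences per direction (mean of at least 20 in the higher group, no overlap, called in all leave-one-out fits), among the 4 called members with the smallest adjusted p in a list, or in a short preset list (S100a8, S100a9, Arg1, Arg2, Nos2, Cd274, Il1b, Ptgs2, Cxcr2, Csf3r, Hif1a, Stat3, Rn45s). Named outside this rule, after their values were seen, were B2m, C3ar1, Cd3e, Chil3, Csf2rb, Ear2, Egr1, Epx, Fermt3, Fos, Gbp2, Gp1ba, Gp5, Il6ra, Itga2b, Itgb1, Jun, Lars2, Ltf, Nfkbia, Ngp, Olfm4, Pax5, Pecam1, Pf4, Ppbp, Prg2, Prok2, Ptgs1, Selp, Slc27a2, Tbxas1, Tlr7 and Tyk2.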

Additional observations from a re-analysis of the deposited data

How the results depend on the processing

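The number of genes that differed between day 8 and day 0 stayed between 5800 and 6748 under the alternatives counted, against 6676. Fits without a single day 4 or day 11 library were also run and are not in that range. They kept 6493 to 6589 of the 6676 calls in the same direction. edgeR gave 6689, limma-voom 6635 and DESeq2 6304. With the length trend removed it was 6109, and S100a9 turned from -0.52 to 0.31 (adjusted p = 0.000145); among genes named by the rule it was the only one whose called difference changed direction under an alternative. Among the combinations of a named gene and a counted alternative, 59 lost the call and 6 gained it. Day 8 against day 4 gave 2122 to 3308 genes when single libraries were left out, the lowest without day 4 replicate 3, and the cause was not tested. With the replicate number as a replicate block 6503 genes differed between days 8 and 0. Day 0 and day 8 libraries of the same number deviated together with r of 0.0684, -0.107 and 0.226, and not every library correlated best with its own number, so the numbers were not taken as pairs. Genes of a few counts per library, such as Nos2 and C1qa, are limited by depth.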
